A study of Homo sapiens with 6 samples.

Results

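Amino acid transporters of 7 solute carrier families were examined in HES3 cells, a line of human embryonic stem cells. The members were all probes whose platform gene symbol names family SLC1, SLC3, SLC6, SLC7, SLC36, SLC38 or SLC43 followed by A and a number. This gave 75 probes for 57 genes, of 24526 probes on the array. A further 3 probes, for the pseudogene SLC7A5P2 and the neighbouring gene SLC7A6OS, carry a suffix after the number and were left outside. The cells were kept on irradiated human fibroblast feeders, passed through a strainer that per the labels typically removed 90% of feeders, and plated on fibronectin for 2 days. One treatment was Activin A with BMP4 for 3 days and the other Activin A alone for 3 days, each factor at 50 ng/ml per the labels, with 3 Illumina bead arrays a treatment. Groups were taken from titles and source names, since the protocol text lists Activin A and BMP4 alike for all samples. The design text calls the replicates biological, and all come from the same line.

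Solute carriers of these families move amino acids across the plasma membrane and the lysosomal membrane. Some couple uptake to sodium or protons, and others exchange an amino acid inside the cell for one outside. Several SLC7 proteins are light chains that reach the plasma membrane only when bound to a heavy chain of the SLC3 family. Amino acids taken up in this way feed protein synthesis and are sensed at the lysosome by the kinase complex mTORC1. Embryonic stem cells are known for a strong dependence on particular amino acids, among them methionine.

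With BMP4 added, SLC6A15, a sodium-coupled carrier of branched-chain amino acids and proline, was lower on each of its 3 probes. It was 2.60-fold and 2.85-fold lower on the brighter ones and at least 1.47-fold lower on the dimmest. The bound on the dimmest was smaller with another background correction. SLC43A2, a carrier of large neutral amino acids, was 1.91-fold lower. SLC36A1, a proton-coupled carrier found on lysosomes, was 1.95-fold higher, and the cationic amino acid carrier SLC7A2 was 1.59-fold higher. SLC7A6, a light chain that exchanges cationic for neutral amino acids, was higher on both of its probes.

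Testing was limited to probes detected (p under 0.01) on 3 or more of the 6 arrays, which left 32 member probes of 26 genes (42.7% of members, against 41.2% of all probes). Of these 32 probes, 9 were higher and 8 lower by limma at an adjusted p of 0.05, which is 53.1% called, against a background of 35.4% of all 10116 tested probes (17.5% higher and 17.9% lower). The 17 called probes stand for 14 genes, 8 higher and 6 lower, and 3 of the 8 lower probes belong to SLC6A15. With 1 probe a gene, 13 of 26 genes were called, against 35.8% of all 8186 genes. The excess over the background was not tested. Among the called probes, the dimmest of SLC6A15 and the dimmer of SLC38A1 were above background only in the treatment where they were higher. They entered testing through that treatment alone. The count of higher member probes was 5 without Activin A + BMP4 replicate 1. The count of lower member probes was 5 without Activin A replicate 1 and 4 without Activin A replicate 3. Counts over all tested probes fell too when 1 array was left out. They were 1236 to 1511 higher, against 1773 with all arrays, and 1284 to 1637 lower, against 1808.

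The differences were modest. The median log2 difference over the 32 member probes was 0.01, against 0.01 over all tested probes, and the median absolute difference was 0.36, against 0.27. Member probes lower by at least 2-fold numbered 3 by their fitted values, all of SLC6A15, against 5.28% of all tested probes. One of these was below background with BMP4, where its fitted value is not a bound. Member probes higher by at least 2-fold numbered 0, against 4.01% of all tested probes. All Activin A + BMP4 arrays lay on one side of all Activin A arrays for 19 of 32 member probes (59.4%), against 49.4% of all tested probes.

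**Figure D1:**
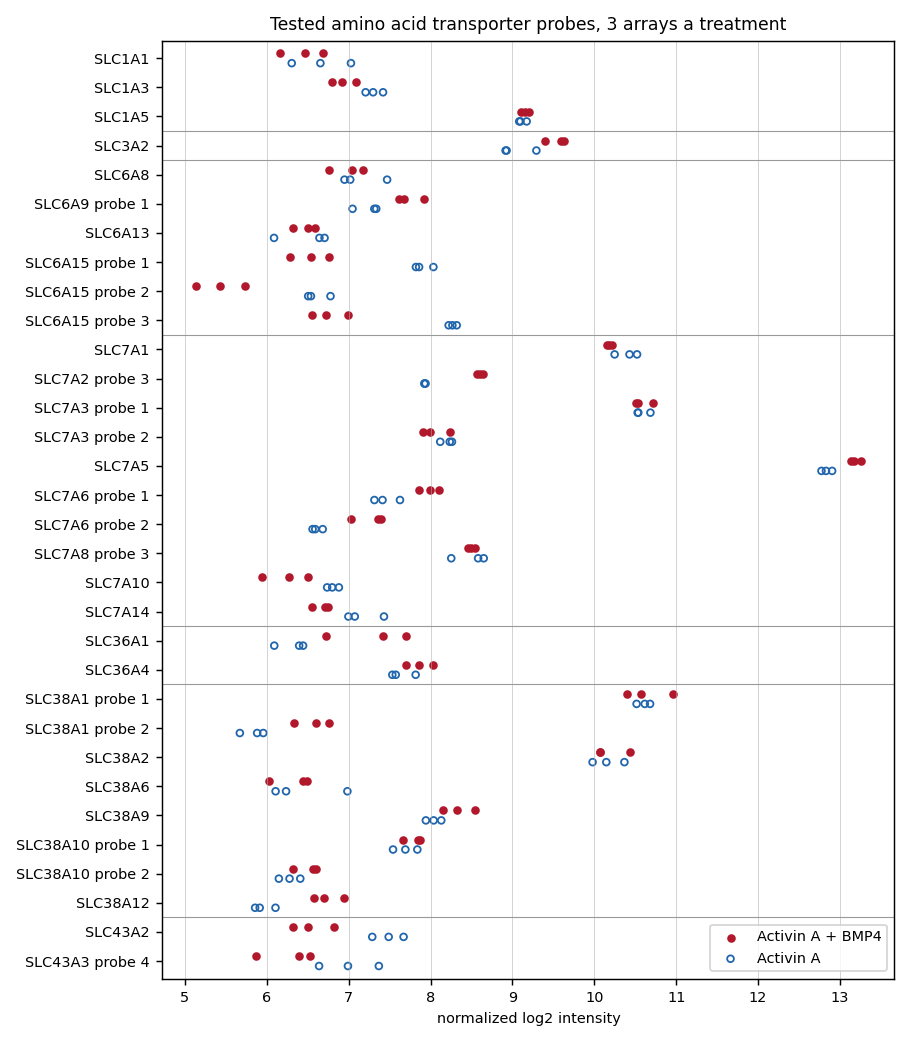
Normalized log2 intensity of each tested transporter probe (rows, grouped by family) on the 3 Activin A + BMP4 arrays (filled points) and the 3 Activin A arrays (open points). The points of the treatments lie apart for 19 of the 32 probes, with the widest gap at SLC6A15.

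**Figure D2:**
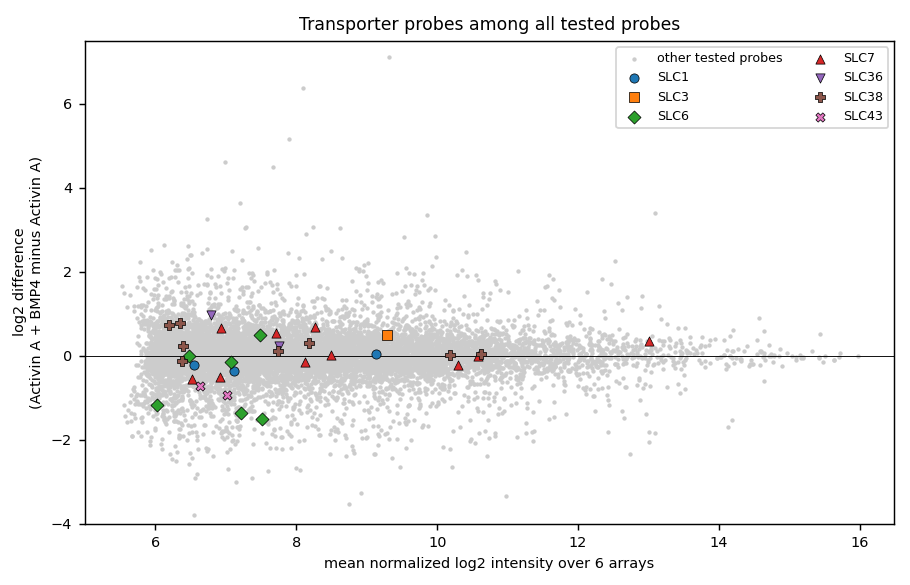
Log2 difference (vertical axis, Activin A + BMP4 minus Activin A) against mean normalized log2 intensity over the 6 arrays (horizontal axis) for all 10116 tested probes in grey, with member probes marked by family. Member differences lie between -1.51 and 0.97, inside a range over all probes from -3.79 to 7.11.

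The arrays detected 9348 to 10460 probes each, and 30 to 33 of the 75 member probes. Normalized log2 values correlated at 0.985 or more within treatments and at 0.926 to 0.945 between them. All 3 Activin A arrays lay on 1 chip and the Activin A + BMP4 arrays on 2 other chips, so chip and treatment cannot be told apart. POU5F1, DPPA4 and LIN28A, markers of pluripotent cells, were above background on all arrays. Of 12 tested markers of this kind 2 were higher, LIN28A and SALL4, and 6 were lower, among them POU5F1 (1.93-fold) and SOX2 (9.66-fold). This is 66.7% called, against 35.8% of all genes. SOX17, a factor of definitive endoderm, was 7.23-fold higher with BMP4 (log2 difference 2.85 ± 0.11 SE). It had the largest difference of 11 tested genes listed as endoderm markers, a list that is not specific to endoderm. Of these, 9 were higher and 0 lower (81.8% called, against 35.8% of all genes), and FOXA2 and HHEX did not pass the threshold. The 9 higher were SOX17, EOMES, GATA4, CXCR4, CER1, GSC, MIXL1, TBXT and KIT. GATA4 was above background only with Activin A + BMP4 and entered testing through those arrays alone. Its call rests on Activin A values below background, and it was at least 2.57-fold higher. Of 24 tested fibroblast feeder markers, 18 were lower and 4 higher with BMP4, with a median of -1.27 (91.7% called, against 35.8% of all genes). The 4 higher were COL5A1, COL5A2, FBLN1 and CCL2. The summed normalized intensity of the 24 was 53263 to 56232 with Activin A + BMP4 and 85147 to 99652 with Activin A. All of the 24 but LUM and MFAP5 were above background on all 6 arrays, among them COL1A1, DCN and THY1. LUM and MFAP5 were above background on 1 of 3 Activin A + BMP4 arrays. A part of the feeders in the transporter differences, higher or lower, was not tested, and in such bulk RNA fewer cells of a type cannot be told apart from less RNA per cell.

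SLC3A2 and the light chains SLC7A5 and SLC7A6 were higher, whereas SLC7A10 was lower. SLC3A2, the heavy chain of the CD98 complex, had normalized log2 intensities of 9.63, 9.60 and 9.40 with Activin A + BMP4, against 8.92, 8.93 and 9.29 with Activin A. The arrays did not overlap, although the highest Activin A array lay close to the lowest Activin A + BMP4 array. SLC3A2 was 1.41-fold higher (log2 difference 0.50 ± 0.14 SE, limma adjusted p = 0.0215). The call was lost without Activin A + BMP4 replicate 1 or 2 (limma adjusted p = 0.0663 and 0.0680), without Activin A replicate 1 or 2 (0.0715 and 0.0696), and with the authors' values (0.0605). SLC3A1, the heavy chain of the kidney cystine carrier, was not above background on any array.

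SLC7A5, the light chain that carries leucine and other large neutral amino acids, had 13.17, 13.26 and 13.13 with Activin A + BMP4, against 12.83, 12.77 and 12.90 with Activin A. All Activin A + BMP4 arrays were above all Activin A arrays, and the log2 difference was 0.35 ± 0.10 SE, or 1.28-fold (limma adjusted p = 0.0242). Median scaling gave a difference of 0.25 (limma adjusted p = 0.221) and the authors' values gave 0.24 (0.213), neither past the threshold. The call was also lost without Activin A + BMP4 replicate 1 or 2 (0.0520 and 0.0857), without Activin A replicate 1 or 2 (0.0622 and 0.0722), with no filter (0.0513) and with the replicate block (0.0572). The array also holds probes for SLC7A5P2, a pseudogene copy of SLC7A5. A probe named for SLC7A5P2 had log2 intensities of 15.62, 15.62 and 15.51 with Activin A + BMP4, against 15.67, 15.76 and 15.62 with Activin A (limma adjusted p = 0.458). The other SLC7A5P2 probe, not tested, had 6.17, 6.47 and 5.98 with Activin A + BMP4, where 2 of 3 arrays were above background, against 5.56, 5.63 and 5.89 with Activin A, where none was. Its values with Activin A + BMP4 were all above those with Activin A. Which of these transcripts each probe binds was not tested, so the value of SLC7A5 is uncertain.

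SLC7A6 was measured by 2 tested probes. Its brighter probe had 7.85, 7.99 and 8.11 with Activin A + BMP4, against 7.41, 7.63 and 7.31 with Activin A, and was 1.45-fold higher (log2 difference 0.53 ± 0.12 SE, limma adjusted p = 0.0102). Its other probe had 7.03, 7.35 and 7.39 with Activin A + BMP4, against 6.59, 6.68 and 6.56 with Activin A, and was 1.57-fold higher (log2 difference 0.65 ± 0.12 SE, limma adjusted p = 0.00425). The treatments did not overlap on either probe, and both calls held under all 16 alternative settings. SLC7A6OS, which neighbours SLC7A6, differed by -0.02 ± 0.16 SE (limma adjusted p = 0.954).

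Of the other light chains, SLC7A8 and SLC7A10 were tested, and neither was higher. SLC7A8, a carrier of neutral amino acids, had 8.46, 8.54 and 8.49 with Activin A + BMP4, against 8.58, 8.25 and 8.65 with Activin A. The treatments overlapped, and the difference of 0.00 had a 95% interval from -0.28 to 0.29. SLC7A10, a carrier of small neutral amino acids including D-serine, had 6.27, 6.50 and 5.94 with Activin A + BMP4, against 6.80, 6.74 and 6.88 with Activin A. All its Activin A + BMP4 arrays were below the Activin A arrays, and it was 1.48-fold lower (log2 difference -0.57 ± 0.15 SE, limma adjusted p = 0.0176, or 0.0559 without Activin A replicate 3). SLC7A11, the cystine and glutamate exchanger, was not above background on any array, and the other 2 probes of SLC7A8 were not either.

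Cationic amino acid carriers of the SLC7 family bring in arginine, lysine and ornithine without a heavy chain. SLC7A2 had 8.57, 8.63 and 8.60 with Activin A + BMP4, against 7.93, 7.94 and 7.92 with Activin A. The arrays of each treatment lay close together, with SDs of 0.034 and 0.0073 (n = 3 each), and the groups were well apart. The log2 difference was 0.67 ± 0.09 SE (limma adjusted p = 7.67e-04), and the call held under all 16 alternative settings. The other 2 probes of SLC7A2 were not above background on any array, so the result rests on 1 probe.

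SLC7A1, the widely expressed member of the group, had 10.18, 10.22 and 10.15 with Activin A + BMP4, against 10.43, 10.52 and 10.25 with Activin A. Its arrays did not overlap, but the difference of -0.22 ± 0.11 SE missed the threshold (limma adjusted p = 0.157, 95% interval -0.46 to 0.03). SLC7A3 had 10.53, 10.71 and 10.51 with Activin A + BMP4 on its brighter probe, against 10.53, 10.54 and 10.68 with Activin A. The values overlapped, with a 95% interval of the difference from -0.25 to 0.24, and its other probe differed by -0.16 ± 0.12 SE (limma adjusted p = 0.338). Thus of 3 tested cationic carriers, 1 was higher and the others were not past the threshold. Over all tested genes, 17.6% were higher.

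SLC7A14, a further member of the family, had 6.71, 6.55 and 6.74 with Activin A + BMP4, against 7.00, 7.07 and 7.43 with Activin A. The treatments did not overlap, and it was 1.41-fold lower (log2 difference -0.50 ± 0.14 SE, limma adjusted p = 0.0216). The call was lost without Activin A + BMP4 replicate 2 or Activin A replicate 3 (limma adjusted p = 0.0745 and 0.0548). Over the SLC7 family, 10 of 18 probes were tested, with 4 higher and 2 lower, or 60% called against 35.4% of all tested probes.

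**Figure D3:**
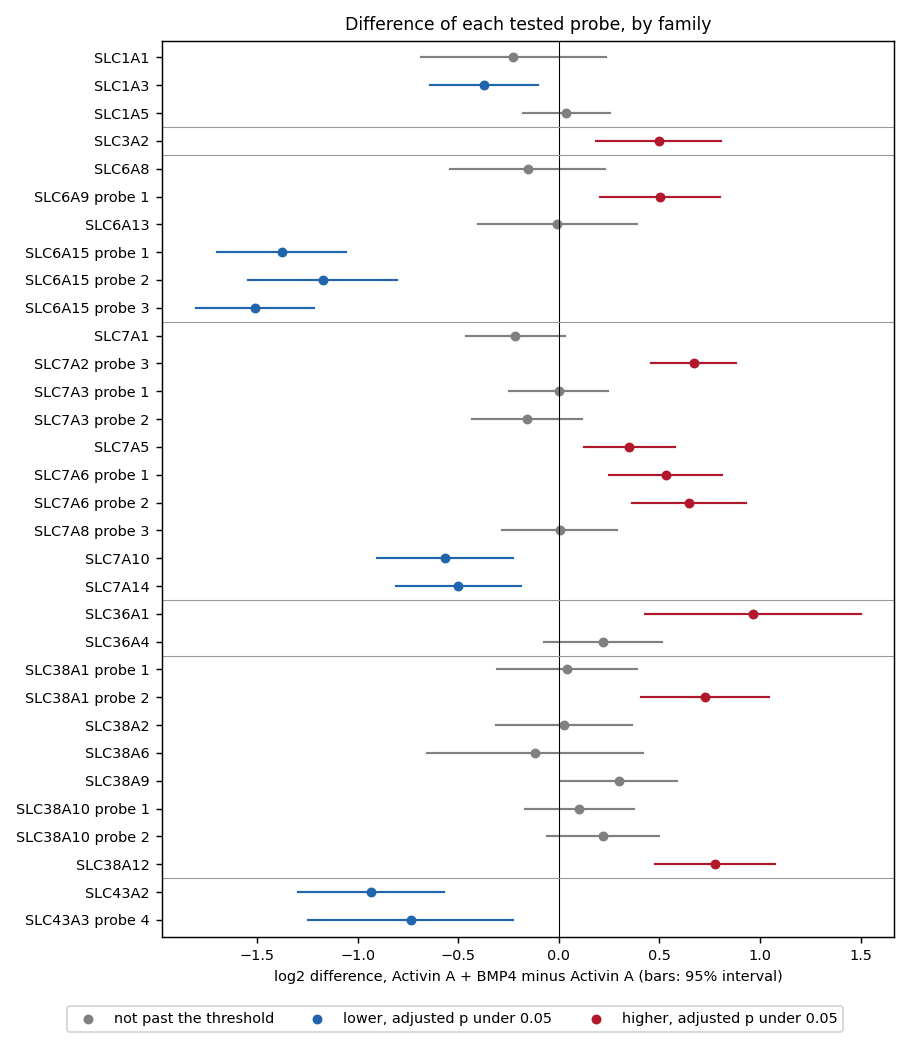
Log2 difference of each tested probe (horizontal axis, Activin A + BMP4 minus Activin A) with its 95% interval from limma, grouped by family (rows) and coloured by call. The 3 SLC6A15 probes lie furthest below 0 and SLC36A1 furthest above, and probes of SLC38A1 and of SLC7A6 can be compared within their genes.

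The SLC6 family holds sodium- and chloride-coupled carriers of neurotransmitters and amino acids. The brightest of the 3 SLC6A15 probes had 6.73, 6.99 and 6.55 with Activin A + BMP4, against 8.22, 8.32 and 8.27 with Activin A. It was 2.85-fold lower (log2 difference -1.51 ± 0.13 SE, limma adjusted p = 5.57e-05). A separate probe had 6.76, 6.54 and 6.28 with Activin A + BMP4, against 7.82, 7.86 and 8.03 with Activin A, and was 2.60-fold lower (log2 difference -1.38 ± 0.14 SE, limma adjusted p = 1.45e-04).

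The dimmest SLC6A15 probe had 5.73, 5.43 and 5.13 with Activin A + BMP4, where it was not above background on any array, against 6.54, 6.78 and 6.50 with Activin A. It was at least 1.47-fold lower. This bound sets the Activin A mean against a floor for each Activin A + BMP4 array. The floor is the higher of the probe's own value and the lowest value among detected probes. With the normexp background correction the bound was 1.24-fold, a check of the bound added after the data had been seen. The probe's call (limma adjusted p = 7.85e-04) is of the fitted difference, which rests on Activin A + BMP4 values below background. This probe entered testing through the Activin A arrays alone. All 3 probes showed every Activin A + BMP4 array below every Activin A array, and their calls held under each alternative setting that tested them. For the dimmest probe these were 12 of 16 settings. Leaving out an Activin A array, or requiring detection on all 6 arrays, removed it from testing. The probes share a gene and are not independent measurements of the treatment.

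SLC6A9, the glycine carrier GLYT1, moved the other way. Its tested probe had 7.92, 7.67 and 7.61 with Activin A + BMP4, against 7.31, 7.05 and 7.34 with Activin A, with no overlap. It was 1.42-fold higher (log2 difference 0.50 ± 0.13 SE, limma adjusted p = 0.0167, or 0.0532 without Activin A + BMP4 replicate 1 and 0.0546 without Activin A replicate 2). Its other 2 probes were not above background on any array. SLC6A8, the creatine carrier, had 6.76, 7.04 and 7.17 with Activin A + BMP4, against 6.95, 7.02 and 7.47 with Activin A, and did not pass the threshold (limma adjusted p = 0.509). SLC6A13, a carrier of GABA and taurine, differed by -0.01 ± 0.17 SE (limma adjusted p = 0.978).

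Most of the SLC6 family was not seen at this sensitivity. Of its 24 probes, 18 were not above background on any array, among them those for the monoamine carriers SLC6A2, SLC6A3 and SLC6A4, the neuronal glycine carrier SLC6A5 and the taurine carrier SLC6A6. A probe below background does not show that a transcript was absent.

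Of the 2 tested members of the proton-coupled SLC36 family, 1 was higher and the other was not past the threshold. Over all tested probes, 17.5% were higher. SLC36A1 had 6.72, 7.41 and 7.70 with Activin A + BMP4, against 6.39, 6.44 and 6.09 with Activin A. The arrays did not overlap, but the Activin A + BMP4 arrays were spread widely, with an SD of 0.50 against 0.19 with Activin A (n = 3 each). The log2 difference was 0.97 ± 0.23 SE (limma adjusted p = 0.0129), and it ranged from 0.62 to 1.25 over the 16 alternatives, with the call kept in each. SLC36A4, a related carrier of neutral amino acids, differed by 0.22 ± 0.13 SE (limma adjusted p = 0.223). SLC38A9, the lysosomal arginine sensor of mTORC1, had 8.15, 8.32 and 8.54 with Activin A + BMP4, against 7.94, 8.04 and 8.13 with Activin A. Its arrays did not overlap, and the difference of 0.30 ± 0.13 SE did not pass the threshold (limma adjusted p = 0.102).

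The SLC38 family holds sodium-coupled carriers of glutamine and other small neutral amino acids. SLC38A1 had 10.57, 10.40 and 10.96 with Activin A + BMP4 on its brighter probe, against 10.52, 10.62 and 10.68 with Activin A. The values overlapped, and the difference was 0.04 ± 0.15 SE (limma adjusted p = 0.859, 95% interval -0.31 to 0.39). Its other probe had 6.60, 6.33 and 6.76 with Activin A + BMP4, against 5.67, 5.88 and 5.96 with Activin A, where it was not above background on any array. That probe was at least 1.46-fold higher, or 1.23-fold with normexp. Its call (limma adjusted p = 0.00411) is of the fitted difference, which rests on Activin A values below background. The dimmer probe entered testing through the Activin A + BMP4 arrays alone. The probes of this gene disagree, and the gene's place among the 8 higher genes rests on the dimmer probe alone.

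SLC38A2, which is induced when amino acids are scarce, had 10.07, 10.06 and 10.44 with Activin A + BMP4, against 9.98, 10.37 and 10.15 with Activin A. The treatments overlapped, with a difference of 0.02 ± 0.15 SE (limma adjusted p = 0.915, 95% interval -0.31 to 0.36). SLC38A12, known earlier as TMEM104, had 6.69, 6.94 and 6.57 with Activin A + BMP4, against 5.91, 6.11 and 5.86 with Activin A, where it was above background on 1 of 3 arrays. Its fitted log2 difference was 0.78 ± 0.13 SE (limma adjusted p = 0.00214), which rests in part on Activin A values below background. In the family as a whole, 2 of 8 tested probes were higher and 0 lower, with a median difference of 0.16. This is 25.0% called, against 35.4% of all tested probes. At an unadjusted p under 0.05 (limma) there were 3 of the 8, against 4573 of all 10116 tested probes. The probes of SLC38A6 and SLC38A10 did not pass the threshold.

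Both tested probes of the SLC43 family were lower, against 17.9% of all tested probes. SLC43A2 had 6.83, 6.51 and 6.31 with Activin A + BMP4, against 7.49, 7.29 and 7.67 with Activin A. The arrays did not overlap, and the log2 difference was -0.93 ± 0.16 SE (limma adjusted p = 0.00227), a call kept under all 16 alternatives. SLC43A3, which is placed in this family by sequence but carries purine nucleobases, had 6.39, 6.53 and 5.87 with Activin A + BMP4, against 6.99, 6.64 and 7.37 with Activin A. The treatments were close but did not overlap, and the probe was 1.67-fold lower (log2 difference -0.74 ± 0.22 SE, limma adjusted p = 0.0328). This call was lost without Activin A + BMP4 replicate 1 or 3 (0.0548 and 0.0888), without Activin A replicate 1 or 3 (0.0753 and 0.0987), and with no filter (0.0680), no further background correction (0.0530) or the replicate block (0.0659). The other 3 probes of SLC43A3, and that of SLC43A1, were not above background on any array.

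The SLC1 family carries glutamate in some members and small neutral amino acids in others. SLC1A5, the glutamine and neutral amino acid exchanger, had 9.20, 9.11 and 9.16 with Activin A + BMP4, against 9.08, 9.17 and 9.10 with Activin A. The values overlapped, and the 95% interval of the difference ran from -0.18 to 0.25. SLC1A3, a glutamate carrier of astrocytes, had 6.91, 6.80 and 7.09 with Activin A + BMP4, against 7.30, 7.42 and 7.21 with Activin A, and was 1.30-fold lower (log2 difference -0.37 ± 0.12 SE, limma adjusted p = 0.0377). Its arrays did not overlap, yet the call was lost in 9 of 16 alternatives. Among these were the fits without Activin A + BMP4 replicate 1 or 2 (0.0868 and 0.123), without Activin A replicate 1 or 2 (0.0856 and 0.110), and with median scaling (0.0661). SLC1A1, another glutamate carrier, differed by -0.23 ± 0.20 SE (limma adjusted p = 0.418), and SLC1A4 was not above background on any array.

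Promoter windows of the members were searched for short motifs, because transcription of several carriers is known to respond to amino acid supply through the factor ATF4. RefSeq windows (GRCh38.p14) from 250 bases before to 50 bases after the gene's start were found for 43 of 57 member genes and 11 of 14 called genes. The called genes SLC6A15, SLC7A2 and SLC43A3 had no window and were not searched. The ATF4 and C/EBP composite motif TGATGNAA, read on both strands, was in 4 of the 43 windows, against 3.67% of all 27305 windows. The 4 windows belong to SLC3A2, SLC1A3, SLC38A1 and SLC7A1. The E-box CACGTG was in 6 of the 43 windows, against 7.43% of all, and among tested members in that of SLC7A5. The SMAD motif GTCTAGAC was in 0 of the 43 windows, against 0.201% of all. A match is a description of the letters only, and the lack of one says nothing of the factor.

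The stretches around the matches of tested members are shown. They include the heavy chain SLC3A2 and the light chain SLC7A5, which were higher, and SLC1A3, which was lower. SLC7A6, the other light chain that was higher, had no match. The remaining stretches belong to SLC7A1 and SLC38A1, 2 carriers whose only or brighter probe did not pass the threshold. Each is read 5′ to 3′ on the gene's strand with the motif in capitals. In SLC3A2 the motif lies on the opposite strand, so its reverse complement is in capitals. The stretches are chr11:62881719-62881748 (plus strand) for SLC3A2, chr5:36596342-36596401 (plus) for SLC1A3, chr13:29595663-29595692 (minus) for SLC7A1, chr12:46266502-46266531 (minus) for SLC38A1 and chr16:87869605-87869664 (minus) for SLC7A5.
SLC3A2: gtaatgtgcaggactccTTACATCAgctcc
SLC1A3: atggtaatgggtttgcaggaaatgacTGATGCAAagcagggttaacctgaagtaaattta
SLC7A1: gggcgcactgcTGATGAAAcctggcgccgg
SLC38A1: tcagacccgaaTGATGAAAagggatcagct
SLC7A5: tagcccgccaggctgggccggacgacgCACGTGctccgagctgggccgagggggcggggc

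Genes that work with the carriers were described from lists of other amino acid carriers, amino acid sensing, the amino acid response, amino acid metabolism and tRNA synthetases. Of 10 tested carriers outside the 7 families, 4 were higher and 1 lower (50.0% called, against 35.8% of all genes). SLC25A13, the mitochondrial aspartate and glutamate carrier citrin, had 8.84, 8.97 and 9.17 with Activin A + BMP4, against 7.74, 7.81 and 8.03 with Activin A, and was 2.20-fold higher (limma adjusted p = 2.51e-04). The mitochondrial carriers of basic amino acids, SLC25A29, and of branched-chain amino acids, SLC25A44, were 1.54-fold and 1.44-fold higher. SLC15A3, a lysosomal carrier of peptides and histidine, was 2.31-fold lower (limma adjusted p = 7.32e-04).

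Among 23 tested genes of amino acid sensing, 1 was higher and 2 lower (13.0% called, against 35.8% of all genes). TSC1, a subunit of the complex that restrains mTORC1, was 2.05-fold higher (log2 difference 1.04 ± 0.18 SE, limma adjusted p = 0.00245). RRAGD, a Rag GTPase that brings mTORC1 to lysosomes, was lower by a fitted log2 difference of -0.96 ± 0.13 SE (limma adjusted p = 5.68e-04), which rests in part on values below background, since 1 of 3 Activin A + BMP4 arrays was above it. FNIP1, a partner of folliculin, was 1.28-fold lower (limma adjusted p = 0.0387). The FNIP1 call was lost without any 1 Activin A + BMP4 array (0.0608, 0.0994 and 0.0814 without replicates 1, 2 and 3) and without Activin A replicate 1 or 2 (0.0820 and 0.117).

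Of 19 tested genes of the amino acid response, 1 was higher and 6 lower, a share of 36.8% that is close to the background. STC2, a secreted glycoprotein, had 9.74, 9.72 and 9.40 with Activin A + BMP4, against 10.95, 10.89 and 11.08 with Activin A, and was 2.55-fold lower (limma adjusted p = 8.62e-05). DDIT4, an inhibitor of mTORC1, was 2.46-fold lower and the transcription factor CEBPB 1.70-fold lower, while the lipoprotein receptor VLDLR was 1.53-fold higher. ATF4 itself and the asparagine synthetase ASNS differed by 0.22 and 0.05, not past the threshold (limma adjusted p = 0.229 and 0.762).

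In amino acid metabolism, 4 of 23 tested genes were higher and 6 lower (43.5% called, against 35.8% of all genes). PRODH, which begins proline breakdown, had 9.15, 9.24 and 9.10 with Activin A + BMP4, against 7.41, 7.51 and 7.62 with Activin A, and was 3.13-fold higher (limma adjusted p = 1.51e-05). GATM, which makes the precursor of creatine, was 2.34-fold higher and the serine hydroxymethyltransferase SHMT1 1.67-fold higher. GLDC, of the glycine cleavage system, was 2.18-fold lower, the arginase ARG2 1.67-fold lower, and BCAT1, the cytosolic branched-chain aminotransferase, 1.57-fold lower. The BCAT1 call was lost without Activin A + BMP4 replicate 2 and without Activin A replicate 1 (limma adjusted p = 0.0530 and 0.0571).

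Of 17 tested cytosolic tRNA synthetases, 1 was higher and 2 lower (17.6% called, against 35.8% of all genes). EPRS1, for glutamate and proline, was 1.57-fold lower (limma adjusted p = 8.92e-04) and GARS1, for glycine, 1.33-fold lower (0.0266). WARS1, for tryptophan, was 1.29-fold higher (0.0296). The GARS1 call was lost without Activin A + BMP4 replicate 2 (limma adjusted p = 0.0954) and without Activin A replicate 1 or 2 (0.0653 and 0.0789). The WARS1 call was lost without Activin A + BMP4 replicate 1 or 3 (0.0824 and 0.0603) and without Activin A replicate 1 or 2 (0.0967 and 0.0762).

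**Figure D4:**
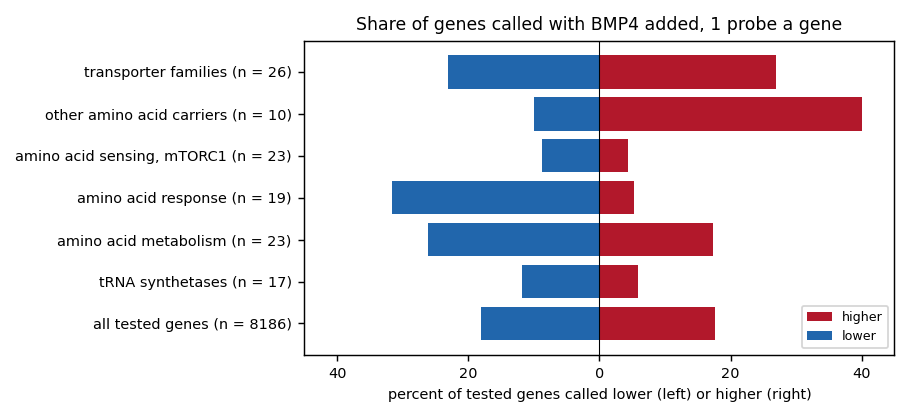
Percent of tested genes called lower (bars to the left) or higher (bars to the right) with BMP4 added, for the transporter families, 5 lists of related genes and all 8186 tested genes, with 1 probe a gene. The amino acid sensing list has 13.0% of genes called and the transporter families 50.0%, against 35.8% of all genes.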

How the data were processed

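The authors deposited bead signals as intensity values. Per the file headers they were not normalized across arrays, and negative values show an earlier background subtraction. Beside each signal the authors deposited a detection score. It rose with the signal, so its complement was taken for the detection p-value. A further table deposited by the authors holds log2 values centred on a baseline unknown for each probe (array medians -0.147 to 0.147), used here as an alternative.

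Signals passed through neqc (limma 3.58.1, R 4.3.3, offset 16), which corrects background and applies quantile normalization. Treatments were compared by lmFit and eBayes with treatment as the only term. The tests were two-sided, with Benjamini-Hochberg adjustment across the 10116 tested probes, and differences subtract Activin A from Activin A + BMP4. The procedure was run on simulated data with independent noise, few changed probes and no chip effect. That setting differs from these data, so it does not show how the procedure behaves here. Symbols came from the platform annotation (1 symbol for 21834 probes, none for 2692), and 21813 were looked up by gene ID in RefSeq. With 1 probe a gene, the brightest tested probe stands for the gene.

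Alternatives changed the background correction, normalization, detection filter and array set, added the replicate number or the chip as a block, or used the authors' table. The chip block could not separate chip from treatment, since each chip held 1 treatment only. Its fitted correlation within chips was 0.0149. Replicate numbers did not pair the arrays (correlations of deviations 0.03, -0.03 and -0.05).

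Members and lists were chosen with earlier results of these data known. Named genes are all called members, 22 members set by name and up to 3 genes a direction of each list. SLC7A7, set by name, is not analysed here.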

Additional observations from a re-analysis of the deposited data

How the results depend on the processing

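Each called member probe kept its direction in all 263 comparisons with an alternative, and in 34 of these it no longer passed the threshold. The 10 probes that passed under every setting that tested them are those of SLC6A15 (3 probes), SLC7A6 (both), SLC7A2, SLC36A1, SLC38A12, SLC43A2 and the dimmer SLC38A1 probe. Of the 16 settings, 12 tested the dimmest SLC6A15 probe, 12 the dimmer SLC38A1 probe and 15 the SLC38A12 probe. A setting that did not test a probe could not remove its call. Leaving out 1 array gave 5 to 9 member probes higher and 4 to 7 lower, 0 to 1 of them higher and 2 to 4 lower by at least 2-fold. Over all tested probes it gave 1236 to 1511 higher and 1284 to 1637 lower, against 1773 and 1808 with all arrays. Member probes lower by at least 2-fold numbered 1 under normexp with an offset of 50, and member probes higher by at least 2-fold numbered 1 with the authors' values and 1 with no further background correction. The cause was not tested. With the replicate block, 8 member probes were higher and 6 lower, and SLC1A3, SLC7A5 and SLC43A3 were lost (limma adjusted p = 0.0767, 0.0572 and 0.0659). Signs turned only among differences that never passed the threshold. SLC7A8 was -0.0056 with cyclic loess. Under median scaling SLC7A8 was -0.0199, SLC38A1 (brighter probe) -0.0760 and SLC38A2 -0.0393, and under the authors' values they were -0.0193, -0.0754 and -0.0377. Without 1 array these ranged from -0.116 to 0.0813 (SLC7A8), -0.124 to 0.166 (SLC38A1), -0.102 to 0.124 (SLC38A2), -0.0650 to 0.0481 (SLC7A3, brighter probe) and -0.252 to 0.0048 (SLC6A8). Signal over background limits dim probes. Those below background on all arrays of a treatment, that of GATA4 among them, have only bounds. The probes of SLC38A12 and RRAGD, and of the feeder markers LUM and MFAP5, were below background on 2 of 3 arrays of a treatment.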
